A study of Drosophila melanogaster with 4 samples.

Results

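Most proteins of the Drosophila melanogaster ribosome are encoded by 1 gene, but some have a second gene copy that is used mainly in germ cells. The genes described here are 10 such genes taken by name, which form 5 pairs of paralogs. The germline-biased copies are RpS5b, RpS19b, RpL22-like, RpS10a and RpS28a, and their broadly expressed partners are RpS5a, RpS19a, RpL22, RpS10b and RpS28b. They are 10 of the 17699 genes counted in these libraries. Of the 10, 9 had reads and the same 9 passed the filter on low counts, among 9038 genes tested. RpS28a had no read in any library. Which copy is called germline-biased comes from background knowledge and not from these libraries, which were made from whole ovaries that hold germline and soma together.

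Ribosomal proteins assemble with ribosomal RNA into the small subunit, which reads the mRNA, and the large subunit, which joins amino acids. RpS10, RpS19 and RpS28 are proteins of the small subunit, and RpL22 is a protein of the large subunit. The mRNAs of ribosomal proteins are among the most abundant in a growing cell, and their loading onto ribosomes is known to be regulated together. A ribosome takes 1 molecule of the protein that each of these pairs encodes, so that the 2 paralogs are alternatives for the same position. RpS5b and RpS19b are known from the female germline, and RpL22-like is known best from the testis.

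The data are polysome-seq libraries, which compare the mRNAs that sediment with several ribosomes in a sucrose gradient with those of the lysate. All 4 libraries came from ovaries in which NosGAL4 drove UAS-Dicer2 together with bam RNAi and which also carried hs-bam, and no control genotype is analysed here. The NosGAL4 driver knocks down bam in germ cells with added Dicer2, which holds them before differentiation, and the heat-shock transgene hs-bam then supplies bam so that germline cysts of mixed stages form. A day of heat shock was 2 h at 37°C, 4 h of rest and 2 h at 37°C again, repeated over 2 days, and ovaries were taken from flies 3 to 5 days old. Each fraction had 2 libraries, which carry the replicate numbers 1 and 3. Polysome fractions were extracted with phenol-chloroform but inputs with TRIzol, and the effects of fraction and extraction cannot be told apart.

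Gene counts ranged from 10646651 to 22647905 per library. Polysome 3 stood apart from the other libraries, with a correlation of log2 CPM (counts scaled to the library total with TMM factors) across genes of 0.786 to 0.802 with them, against 0.841 to 0.873 among them. Across the marker lists, the 14 germline markers measured were detected in every library and held 0.142% to 0.279% of counts, highest in polysome 3. The 15 eggshell genes of late follicle cells held 1.29% of counts in polysome 3 against 0.120% to 0.294% in the others. The 9 muscle sheath markers held 0.727% in polysome 3 against 2.11% to 2.68% in the others. The 10 escort and follicle lineage markers held 0.0986% to 0.163%, lowest in polysome 3, and slbo alone was at 0 in the other 3 libraries. Several paralogs also had their highest or lowest level in polysome 3, and the part of cell composition in those values was not tested. In such bulk samples fewer cells of a type and less RNA per cell cannot be told apart.

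The pairs shared an arrangement on the chromosomes. All 5 germline-biased copies lie on autosomes and all 5 partners on the X chromosome, where 10 of 82 other ribosomal protein genes (12.2%) and 15.1% of all annotated counted genes lie. In the annotation BDGP6.54, which uses dm6 coordinates, RpS5b spans 14900432 to 14901563 of chromosome 3R and RpS5a spans 17143588 to 17148264 of X. RpS19b lies from 23932729 to 23933530 of 3R and RpS19a from 16637894 to 16639249 of X. RpL22-like is found at 23246610 to 23247893 of 2R and RpL22 at 762560 to 765130 of X. RpS10a occupies 27652760 to 27653363 of 3R and RpS10b 19598031 to 19599806 of X. RpS28a runs from 30022345 to 30022648 of 3R and RpS28b from 9554623 to 9555661 of X. The proteins of a pair are of nearly equal length, with 230 and 228 codons for RpS5b and RpS5a, 155 and 156 for RpS19b and RpS19a, 163 and 160 for RpS10a and RpS10b, and 64 and 65 for RpS28a and RpS28b. RpL22-like has 312 codons and RpL22 has 299.

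The transcripts around these coding regions differed more. RpS10a and RpS28a have a single exon, whereas the transcripts of RpS10b and RpS28b with the longest coding region have 3 and 2 exons. The 3' untranslated region was compared in 1 transcript per gene, that with the longest coding region and then the longest exons. It was longer in the partner in 4 of 5 pairs. It had 890 bases in RpS10b against 36 in RpS10a, 687 in RpS28b against 59 in RpS28a, and 444 in RpS19a against 129 in RpS19b. In the RpL22 pair it was 165 bases in RpL22 and 175 in RpL22-like. Whole transcripts differed less where the shortest coding one was taken. These had 651 bases in RpS10b against 604 in RpS10a, 520 in RpS28b against 304 in RpS28a, and 620 in RpS19a against 659 in RpS19b. RpS5a holds 14 genes for snoRNAs, the guide RNAs of ribosomal RNA modification, in its introns and RpL22 holds 2. The partners RpS19a, RpS10b and RpS28b hold none, and neither do the germline-biased copies. RpS10a lies whole within an intron of tau on the opposite strand. RpL22 shares 377 exonic bases with lncRNA:CR42491 on the same strand, and reads there can be left out of its count as ambiguous. Without strand, the counts of RpS19b were 86.8%, 69.0%, 96.3% and 73.6% of the strand-specific ones in input 1, input 3, polysome 1 and polysome 3, although the annotation used here has no gene overlapping it; for the other counted copies this share was 99.0% to 100%.

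Levels were compared between genes per length, as TPM (counts divided by the summed exon length and scaled to the same total in each library). In the inputs the partners were far above the germline-biased copies. RpS28b was at 4828 and 4646 TPM in input 1 and input 3, RpS5a at 3808 and 2869 TPM, RpS19a at 3653 and 2594 TPM, RpS10b at 2492 and 1813 TPM, and RpL22 at 953 and 553 TPM. RpS5a and RpS19a, neighbours in this order, overlapped between the inputs. Among the germline-biased copies RpS5b was at 601 and 646 TPM, RpS19b at 377 and 400 TPM, RpS10a at 91.9 and 45.6 TPM, and RpL22-like at 13.0 and 11.4 TPM, and the ranges of these 4 did not overlap. RpS5b lay below RpL22 in input 1 and above it in input 3, so that this part of the order did not hold beyond the spread. The median of 65 single-copy ribosomal protein genes was 4532 and 3920 TPM, close to RpS28b and above RpL22 by the widest margin among the partners.

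**Figure D1:**
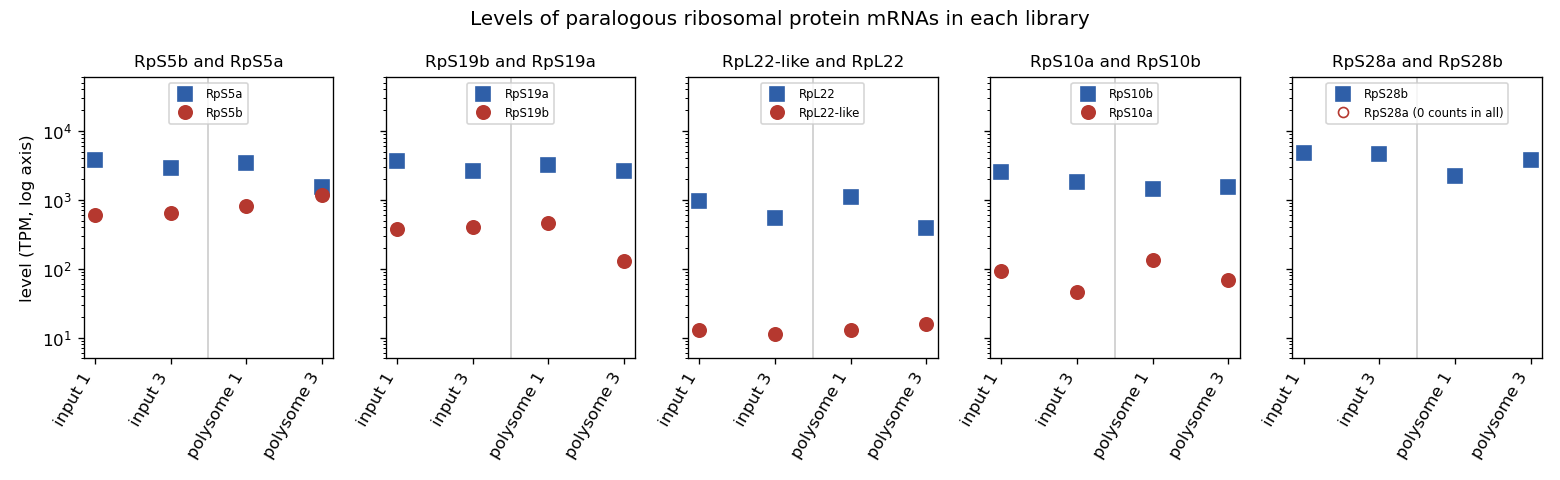
Level of each copy in TPM on a log axis in the 4 libraries, 1 panel per pair, with squares for the partner and circles for the germline-biased copy. The partner was above the germline-biased copy in every library, and the closest points are those of RpS5a (1531 TPM) and RpS5b (1171 TPM) in polysome 3.

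RpS28a is the copy for which no expression was detectable. In each library 0 reads were counted, and the level that a count of 3 would give was 0.291 and 0.276 CPM in inputs 1 and 3 and 0.142 and 0.123 CPM in polysomes 1 and 3. Against 31862, 31490, 23969 and 49480 reads on RpS28b in the same order, a count of 3 allows RpS28a a share of the pair, per length, of up to 0.0301%, 0.0305%, 0.0400% and 0.0194%. Only reads that map to 1 place in the genome are counted, and multimapping reads made up 3.60% to 23.4% of all reads per library. Whether reads of near-identical stretches of RpS28a or of the other copies are among them was not tested. The value for RpS28a is therefore an upper limit on uniquely mapped reads.

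The share of each pair held by the germline-biased copy was computed per length in each library, with a 95% Wilson interval that covers counting error only. RpS5b held the largest share, 13.6% (13.2 to 14.0) in input 1 and 18.4% (17.9 to 18.9) in input 3. In polysome 1 it was 19.4% (19.0 to 19.7) and in polysome 3 it was 43.3% (42.9 to 43.8). RpS5b thus held a larger part of its pair in both polysome libraries than in either input, by a narrow margin over input 3 in polysome 1.

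RpS19b held 9.36% (8.96 to 9.78) of its pair and 13.3% (12.8 to 13.9) in inputs 1 and 3, against 12.7% (12.3 to 13.0) and 4.83% (4.57 to 5.10) in polysomes 1 and 3. Polysome 3 was below the other 3 libraries, while polysome 1 lay between the 2 inputs, so that the fractions overlapped. RpS10a, whose gene has a single exon, held 3.56% (3.23 to 3.92) and 2.45% (2.14 to 2.82) in inputs 1 and 3, against 8.58% (8.08 to 9.12) and 4.29% (3.96 to 4.65) in polysomes 1 and 3. Here both polysome libraries lay above both inputs and polysome 1, not polysome 3, was highest. RpL22-like held 1.35% (1.12 to 1.62), 2.02% (1.66 to 2.46), 1.16% (1.00 to 1.35) and 3.96% (3.52 to 4.45) in the same order, and the fractions overlapped.

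These shares depended on the length given to each gene, since the summed exon length counts long 3' ends that may be used rarely. The mean input share of RpS19b was 11.4% with the summed exon length, 6.42% with the coding length and 6.38% of plain counts. For RpS10a these values were 3.01%, 1.17% and 1.19%, for RpS5b 16%, 11.5% and 11.6%, and for RpL22-like 1.69%, 1.81% and 1.88%. With the 377 shared bases of RpL22 left out of its length the share of RpL22-like was 1.11%. In each of these settings the partner held most of its pair, and RpS5b held the largest share among the germline-biased copies. A change of length shifts the log2 ratio of a pair by the same amount in all 4 libraries and leaves its difference between fractions as it is.

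**Figure D2:**
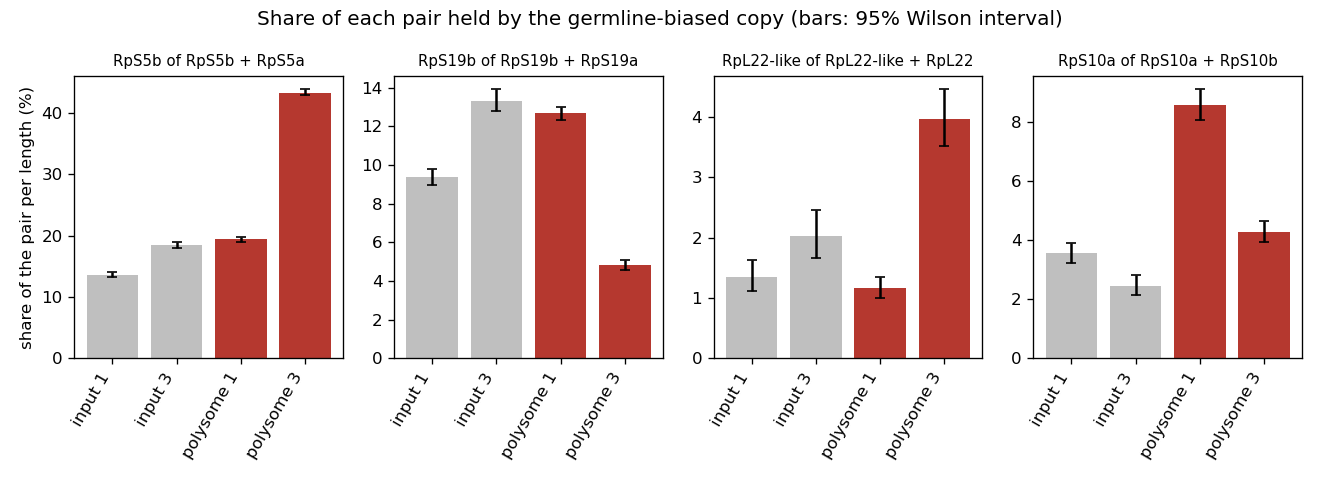
Share of each pair held by the germline-biased copy, per length and in percent, in the 4 libraries, with inputs in grey and polysomes in red and error bars for the 95% Wilson interval. RpS5b and RpS10a are higher in both polysome libraries than in both inputs, while RpS19b and RpL22-like have a polysome library on each side of an input; each panel has its own axis.

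The ratio of the germline-biased copy to its partner within a library needs no scaling between libraries, and its polysome and input values were compared with a two-sided exact permutation test in 4 pairs. With 2 libraries against 2 the smallest p this test can give is 0.333, so that no pair can pass a threshold of 0.05. For RpS5b over RpS5a the log2 ratio was -2.41 ± 0.36 in input and -1.22 ± 1.18 in polysome (SD, n = 2 each), a difference of 1.19 (exact permutation p = 0.333, adjusted 0.666), or 2.28-fold. For RpS10a over RpS10b it was -5.04 ± 0.39 and -3.95 ± 0.75, a difference of 1.09 (exact permutation p = 0.333, adjusted 0.666), or 2.13-fold. These were the pairs without overlap between fractions. For RpS19b over RpS19a the difference was -0.56 (exact permutation p = 0.667, adjusted 0.889) and for RpL22-like over RpL22 it was 0.39 (exact permutation p = 1.00, adjusted 1.00).

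The replicate numbers differed in these ratios. Within number 1 the log2 ratio of RpS5b to RpS5a was 0.61 higher in polysome than in input, and within number 3 it was 1.76 higher. For RpS10a to RpS10b the differences were 1.35 and 0.84. RpS19b to RpS19a differed by 0.49 within number 1 and by -1.60 within number 3, and RpL22-like to RpL22 by -0.22 and 1.00, so that in both pairs the sign turned between the numbers. Without polysome 3 the difference was 1.62 for the RpS10 pair, 0.20 for RpS19 and -0.51 for RpL22. Without polysome 1 it was 0.56, -1.32 and 1.30 in the same order. Of these 3 pairs, RpS10 kept a higher ratio in polysome with each library left out in turn.

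Taken gene by gene, no copy was called between polysome and input. In the test by edgeR, 0 of the 9 copies had an adjusted p under 0.05, against 0% of the 9038 genes tested. The smallest adjusted p over all genes was 0.956. Among all genes 423 had an unadjusted p under 0.05, and DESeq2 called 41 genes, while among the 9 copies no unadjusted p was under 0.05 and DESeq2 called 0. Both polysome libraries lay above both inputs in 1 of the 9 copies and below them in 4, against 17.2% and 18.1% of all genes tested. The copies that lay below were RpS5a, RpS19b, RpS10b and RpS28b, so that 3 of the 4 were partners.

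RpS5b was the copy that lay above. Inputs 1 and 3 had 377 and 394 CPM, while polysomes 1 and 3 had 408 and 621 CPM. The inputs and polysome 1 were within a narrow range and polysome 3 stood above them. The log2 fold change of polysome over input was 0.42 ± 0.41 (SE; edgeR adjusted p = 0.996), and it was 0.067 without polysome 3 and 0.74 without polysome 1. Of RpS5a, inputs 1 and 3 had 3481 and 2547 CPM, while polysomes 1 and 3 had 2474 and 1184 CPM. Its polysome levels were below the inputs, only just so in polysome 1, and polysome 3 was lowest. The log2 fold change was -0.72 ± 0.47 (edgeR adjusted p = 0.956), -0.30 without polysome 3 and -1.30 without polysome 1.

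Of RpS19b, inputs 1 and 3 had 166 and 171 CPM, while polysomes 1 and 3 had 163 and 48.7 CPM. A single library, polysome 3, stood apart, and the other 3 lay between 163 and 171 CPM. Its log2 fold change was -0.67 ± 0.56 (edgeR adjusted p = 0.983), and it was -0.063 without polysome 3. Of RpS19a, inputs 1 and 3 had 3021 and 2084 CPM, while polysomes 1 and 3 had 2116 and 1809 CPM. Its fractions overlapped, and its log2 fold change was -0.38 ± 0.40 (edgeR adjusted p = 1.00). Without polysome 1, where 7.24% of genes were called, RpS19b (-1.73, edgeR adjusted p = 0.0273) and RpS5a (-1.30, edgeR adjusted p = 0.0251) were the 2 copies called, both lower in polysome 3 than in the inputs. Without polysome 3, where 0.549% of genes were called, 0 copies were called, and 0 were called without either input.

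Of RpS10a, inputs 1 and 3 had 36.6 and 17.6 CPM, while polysomes 1 and 3 had 42.3 and 22.9 CPM. It was higher in the libraries numbered 1 than in those numbered 3 in both fractions, and the fractions overlapped. The log2 fold change was 0.27 ± 0.61 (edgeR adjusted p = 1.00), and it changed sign without input 3 (-0.17) and without polysome 1 (-0.19). Of RpS10b, inputs 1 and 3 had 2558 and 1808 CPM, while polysomes 1 and 3 had 1161 and 1318 CPM. Both polysome libraries were clearly below both inputs. The log2 fold change was -0.82 ± 0.40 (edgeR adjusted p = 0.956) and lay between -1.05 and -0.55 with each library left out in turn.

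RpL22-like was the scarcest counted copy, with 10.6 and 9.0 CPM in inputs 1 and 3 and with 8.32 and 11 CPM in polysomes 1 and 3. It rested on 98 to 268 reads per library, and the exact Poisson intervals of both inputs overlapped those of both polysome libraries. The log2 fold change was -0.019 ± 0.94 (edgeR adjusted p = 1.00). RpL22 had 692 and 389.5 CPM in inputs 1 and 3 and had 631 and 238 CPM in polysomes 1 and 3. Here too the libraries numbered 1 were above those numbered 3 in both fractions. Its log2 fold change was -0.31 ± 0.55 (edgeR adjusted p = 1.00) and turned to 0.15 without input 1 and 0.20 without polysome 3. RpS28b had 3094 and 2893 CPM in inputs 1 and 3 and had 1133 and 2034 CPM in polysomes 1 and 3. The fractions did not overlap, and the log2 fold change was -0.92 ± 0.43 (edgeR adjusted p = 0.956), or -1.42 without polysome 3 and -0.51 without polysome 1.

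**Figure D3:**
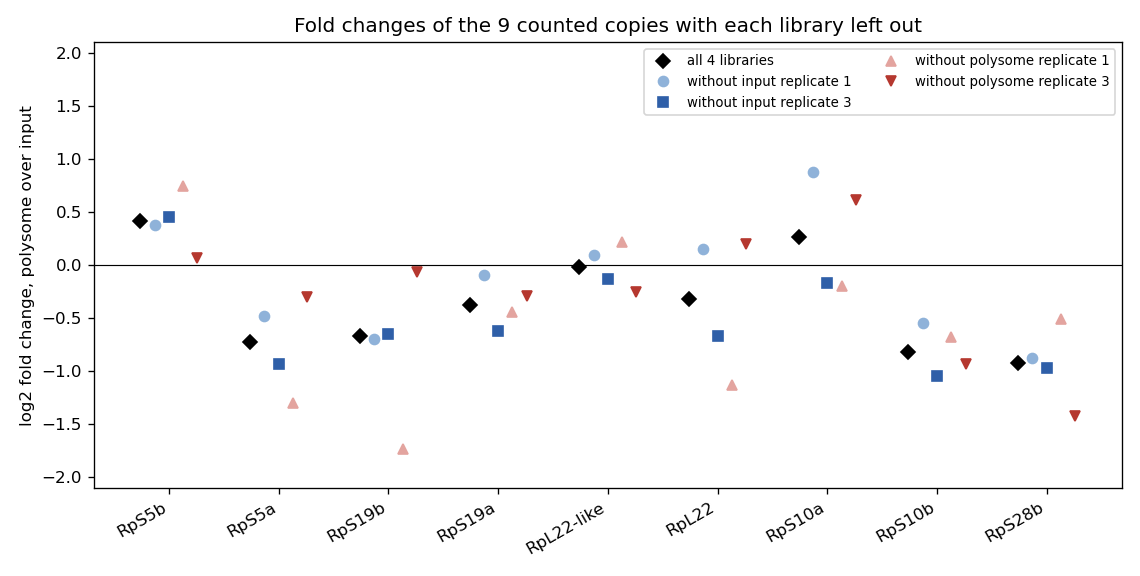
Log2 fold change of polysome over input (vertical axis) for the 9 counted copies, with all 4 libraries (black) and with each library left out in turn (coloured). RpS19b moves from -0.67 to -0.063 without polysome 3 and to -1.73 without polysome 1, while RpS10b stays between -1.05 and -0.55.

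The copies were then set beside the other ribosomal protein genes, whose level in polysomes relative to input was low as a group. Of 65 single-copy ribosomal protein genes 64 had a log2 fold change below 0, with a median of -0.66, and 51 had both polysome libraries below both inputs, where the median over all tested genes was -0.003. None of the 65 was called by edgeR, and 10 of the lower ones had an unadjusted p under 0.05. The smallest p in this list were those of RpS21 (-1.26 ± 0.42) and RpL37A (-1.30 ± 0.44). The 1 higher gene was RpL3 (0.18 ± 0.47), which is also the highest of the list. The median was -0.90 without polysome 3 and -0.39 without polysome 1.

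All 5 partners had a log2 fold change below 0, their median was -0.72, and they lay within the range of the single-copy genes, which ran from -1.39 to 0.18. The median of the partners was -0.68 without polysome 1 and -0.30 without polysome 3, where RpL22 was at 0.20. Of the 65 single-copy genes, 9 lay below RpS28b, 17 below RpS10b, 27 below RpS5a, 50 below RpS19a and 54 below RpL22. The germline-biased copies had a median of 0.12 over the 4 tested, which was 0.015 without polysome 1 and 0.002 without polysome 3. In the fit with all libraries, RpS5b and RpS10a lay above all 65 single-copy genes, RpL22-like above 64 and RpS19b above 31. These ranks were not computed with a library left out. RpS5b was at 0.067 without polysome 3, and RpS10a was at -0.19 without polysome 1 and -0.17 without input 3. The single-copy gene RpL3 had 3913 and 2166 CPM in inputs 1 and 3 and 4416 and 2492 CPM in polysomes 1 and 3. The standard errors of the germline-biased copies were 0.41 to 0.94, and the difference between the sets was not tested. With counts scaled to the summed counts of the other ribosomal protein genes, which moved the median of all genes from -0.003 to 0.61 and that of the single-copy genes to -0.079, RpS5b was at 0.99, RpS10a at 0.95, RpL22-like at 0.57 and RpS19b at 0.014. The partners were then at -0.049 (RpS5a), 0.25 (RpS19a), 0.38 (RpL22), -0.21 (RpS10b) and -0.36 (RpS28b), and no copy was called.

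**Figure D4:**
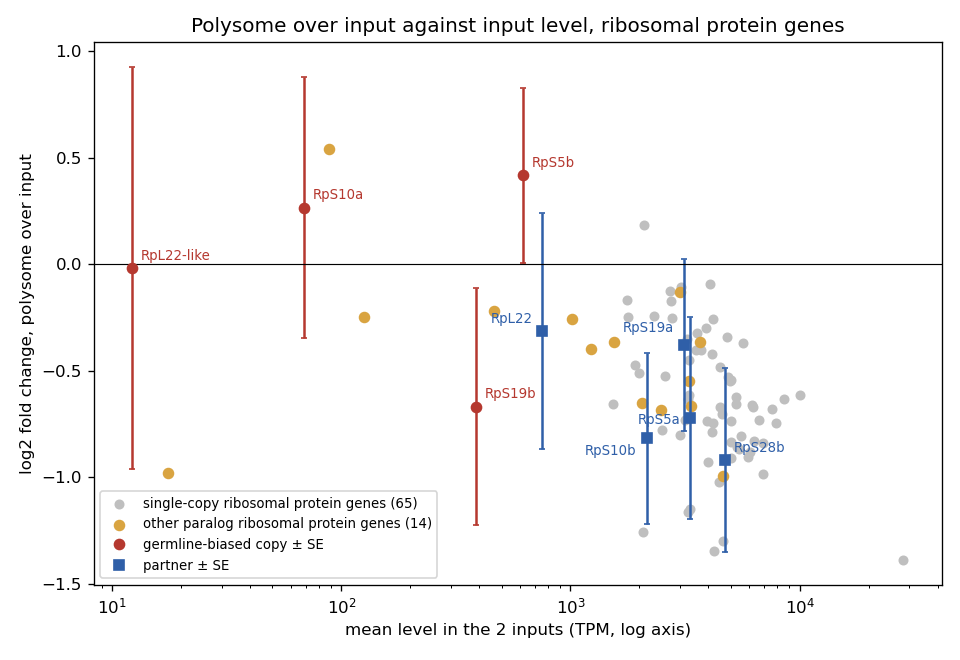
Log2 fold change of polysome over input against the mean input level (TPM, log axis) for 65 single-copy ribosomal protein genes (grey), 14 other genes with a paralog (yellow), the 4 tested germline-biased copies (red circles) and the 5 partners (blue squares), with bars for the SE of the members. The fold changes are those of the fit with all libraries. In height the partners sit within the range of the grey points, while RpS5b and RpS10a, at lower input levels, sit above all grey points. The partner RpL22 (753 TPM) lies to the left of the grey point with the lowest input level (RpL5, 1538 TPM). Of the yellow points RpLP0-like (0.54, at 88.2 TPM) sits above RpS5b and RpS10a, and the other 13 are below 0.

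As a part of all ribosomal protein mRNA the germline-biased copies were small. Together they held 0.296% of the TPM of ribosomal protein genes and 0.328% in inputs 1 and 3, and 0.608% and 0.475% in polysomes 1 and 3. Both polysome libraries were above both inputs in this share. Of the TPM of the 5 pairs they held 6.44% and 8.12% in the inputs and 11.2% and 12.4% in the polysomes. Most of this was RpS5b, which alone held 0.164% and 0.192% of ribosomal protein TPM in the inputs and 0.348% and 0.401% in the polysomes. Ribosomal protein genes as a whole held 36.5% and 33.6% of all TPM in the inputs and 23.4% and 29.2% in the polysomes.

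Translational efficiency (TE) was taken for each replicate number as log2 of the polysome level over the input level after adding 1 TPM to both. It differed between the replicate numbers for most copies but was nearly equal for RpS10a. The median over all tested genes was 0.32 in number 1 and 0.086 in number 3. RpS10a had a TE of 0.52 and 0.57, above that median in both numbers, at percentiles 62.4 and 68.1 of the genes tested. RpS5b was at 0.43 and 0.86 (percentiles 57.0 and 76.9). RpS19b was at 0.29 in number 1 and -1.60 in number 3 (48.5 and 9.34), the widest gap among the copies. RpL22-like was at -0.027 and 0.46 (29.8 and 63.8).

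Among the partners RpS28b had a TE of -1.13 and -0.31, at percentiles 5.70 and 36.0, and RpS10b one of -0.82 and -0.26, at 8.53 and 37.6. RpS5a was at -0.17 and -0.91 (23.2 and 20.1). RpS19a was at -0.20 and -0.0050 (22.5 and 46.2) and RpL22 at 0.19 and -0.51 (42.1 and 30). All 5 partners were below the median of all genes in both numbers, and so was the germline-biased copy RpS19b. The median TE of the single-copy ribosomal protein genes was -0.67 in number 1 and -0.12 in number 3. The mean TE over the numbers was 0.65 ± 0.21 (SE) for RpS5b against -0.54 ± 0.37 for RpS5a, and 0.55 ± 0.023 for RpS10a against -0.54 ± 0.28 for RpS10b.

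Other genes with the name of a ribosomal protein and a paralog were listed for comparison. Whether each product is part of the ribosome, such as those of RpLP0-like and RpL24-like, was not checked. The same genes are counted among the 82 other ribosomal protein genes and in the TPM of ribosomal protein genes. Of 17 such genes 14 were tested, 13 with a log2 fold change below 0 and 1 above it, with a median of -0.38 and 0 called by edgeR. RpL7-like, RpL10Aa and RpS28-like had 0 counts in all 4 libraries, as RpS28a had. In 3 further pairs the scarcer copy was compared with its partner per length. RpS15Ab, at 161, 91.1, 168 and 88.5 TPM in input 1, input 3, polysome 1 and polysome 3, held 3.29%, 1.98%, 6.31% and 2.82% of its pair with RpS15Aa. Polysome 1 had the highest of these shares, and the fractions overlapped. RpL34a held 34.0% and 32.1% of its pair with RpL34b in the inputs and 37.2% and 41.1% in the polysomes. As for RpS5b and RpS10a, both polysome libraries lay above both inputs, with a smaller difference in the log2 ratio (0.38). RpL37-2 held 0.441%, 0.624% and 0.727% of its pair with RpL37-1 in input 1, input 3 and polysome 1, and 0.10% in polysome 3, where 16 reads were counted. Like RpS19b, it was lowest in polysome 3.

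The other genes of this list were RpL7 (-0.36 ± 0.39), RpL10Ab (-0.66 ± 0.41), RpL24 (-0.68 ± 0.39), RpL24-like (-0.22 ± 0.40), RpLP0 (-0.13 ± 0.43) and RpLP0-like (0.54 ± 0.42), each as the log2 fold change with its SE. RpS15Aa had the smallest p of the list (-0.99 ± 0.39, edgeR adjusted p = 0.956). RpS14a (-0.36 ± 0.45) and RpS14b (-0.40 ± 0.55) lie close together on X as near-identical copies, and the division of reads between them is uncertain.

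The genes whose pattern over the 4 libraries was nearest to each germline-biased copy were found by the distance between centred log2 CPM values among 6992 genes at a mean of 10 CPM or more. Nearest to RpS5b were Prosalpha6, a proteasome subunit (distance 0.036), the syntaxin gene Syx13 (0.056) and Uev1A (0.068). Nearest to RpS19b were SkpC (0.071), the muscle tropomyosin gene Tm2 (0.10) and CG6006 (0.12). Tm2, which is also one of the muscle sheath markers, was at 1766, 1703, 1603 and 476 CPM in input 1, input 3, polysome 1 and polysome 3. Nearest to RpL22-like were Polr2J, a subunit of RNA polymerase II (0.031), RanGAP (0.058) and the gene FBgn0010877 (0.083), and nearest to RpS10a were Cyt-b5 (0.10), CG30344 (0.15) and Vps28 (0.15). With 4 libraries many genes share a pattern, and these distances describe the libraries only.

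Genes that act on ribosomal protein genes or on ribosome production in the germline were also measured. Of 9 such genes 3 had a log2 fold change above 0 and 6 below it, with a median of -0.054 (0.16 without polysome 1, -0.006 without polysome 3) and 0 called by edgeR. Those with the smallest p were the nucleoporin genes Nup107 (0.88 ± 0.47) and Nup154 (0.48 ± 0.37) on the higher side, and wde (-0.69 ± 0.38), a cofactor of the histone methyltransferase encoded by egg, and the RNA-binding protein gene larp (-0.55 ± 0.54) on the lower side. Among germline markers 8 of 14 were higher and 6 lower, with a median of 0.059 that was 0.25 without polysome 1 and -0.26 without polysome 3; osk (4.38 ± 1.59), gcl (1.02 ± 0.52), Rbfox1 (-1.39 ± 0.49) and spn-E (-0.67 ± 0.37) had the smallest p. vas, a germline RNA helicase gene, was at 209, 165, 158 and 247 CPM in input 1, input 3, polysome 1 and polysome 3, and bgcn, a partner of bam, at 42.7, 50.1, 88.1 and 5.14 CPM. Among the germline markers, therefore, some were highest in polysome 3, as RpS5b was, and some lowest, as RpS19b was.

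The lists of somatic cells moved with polysome 3. Of 9 tested escort and follicle lineage markers 8 were lower, with a median of -0.61, or -1.07 without polysome 1 and -0.30 without polysome 3 (Fas3 -0.96 ± 0.43, zfh1 -0.87 ± 0.53, and tj at 0.21 ± 0.49 as the higher one). All 15 eggshell genes were higher, with a median of 4.82, or 1.18 without polysome 3 (Cp36 7.09 ± 1.38, Cp7Fb 5.23 ± 1.12). All 9 muscle sheath markers were lower, with a median of -0.82, or -1.81 without polysome 1 and -0.42 without polysome 3 (sls -2.38 ± 0.73, Mlp60A -0.82 ± 0.43). None of these genes was called by edgeR, while 14 eggshell genes and 1 muscle sheath marker had an unadjusted p under 0.05. RpS5a, RpS19a, RpS19b and RpL22 had their lowest CPM in polysome 3 and RpS5b and RpL22-like their highest, and the part of these cell types in those values was not tested.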

How the data were processed

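Poly(A) RNA of the 4 libraries was sequenced from directional libraries after 13 min of fragmentation. The submitters' processing notes name dm6 and STAR 2.6.1c, and the authors deposited STAR's raw counts per gene, of uniquely mapped reads and without normalization. Column 4, the strand of the kit, held 95.3% to 97.1% of strand-assigned counts and was used. Reads naming no gene (10.8% to 42.6%) stayed out. Names, lengths and coordinates came from BDGP6.54, which held 17561 of 17699 identifiers.

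Polysome was tested against input by edgeR 4.0.16 (R 4.3.3; quasi-likelihood F test) with TMM factors, filterByExpr and Benjamini-Hochberg adjustment over 9038 genes, called under 0.05, after a test on simulated data. CPM are TMM-scaled; the SE comes from the test statistic. TPM used the summed exon length. Pair ratios were compared by exact permutation over libraries. The study divides each polysome library by its corresponding input, which ties equal numbers to 1 lysate; the deviations of equal numbers correlated at r = -0.060 across 9038 genes. The labels do not say whether replicates are separate collections of flies. The p-values then reflect only how far these libraries vary, which may be technical.

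The members and gene lists were chosen with earlier results of these data known. Named were all members, the 2 genes with the smallest p per direction in each list, every gene of the other paralog list, and the 3 nearest genes per germline-biased copy; vas, bgcn, slbo and Tm2 as a marker were named after their values were seen. Of the list symbols 3 were not matched and are not analysed here. Alternatives were RLE or upper-quartile factors, DESeq2 1.42.0, scaling to other ribosomal protein genes, no filter, 50 counts in 2 libraries, unstranded counts, a replicate block, each library left out, a TPM pseudocount of 0.1, and other gene lengths, of which the coding length, the shortest transcript and the length free of same-strand genes were added after seeing the data.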

Additional observations from a re-analysis of the deposited data

How the results depend on the processing

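Over all genes 0 were called, against 41 by DESeq2, 104 with no count filter and 47 with the replicate block, and 0 to 695 with each library left out (0 without input 3, 8 without input 1, 53 without polysome 3, 695 without polysome 1). Of the 9 copies, 0 were called in the main test, with the block and in each other alternative except without polysome 1 (2 called), so leaving out a library gave 0 to 2. With the block the fold changes of the copies lay between -0.98 (RpS28b) and 0.39 (RpS5b), with RpS19b at -0.92, and the pair differences were the same as without it, with a smallest possible exact sign-flip p of 0.5. A fit with a library left out takes the spread of a lone library from the fraction that still has 2. With scaling to the other ribosomal protein genes the sign turned for RpS19b (0.014), RpS19a (0.25), RpL22-like (0.57) and RpL22 (0.38). With a library left out, fold changes lay between -0.25 and 0.22 for RpL22-like (0.098 without input 1, 0.22 without polysome 1), -1.13 and 0.20 for RpL22 (0.15 without input 1), and -0.19 and 0.88 for RpS10a (-0.17 without input 3). The pair differences then lay between 0.56 and 1.62 for RpS10, -1.32 and 0.20 for RpS19, and -0.51 and 1.30 for RpL22. RpS19b passed without polysome 1 (-1.73), as did RpS5a (-1.30).

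The input share per length moved with the length used: RpS5b from 16% to 11.6% with no length correction, 11.5% with the coding length and 10.8% with the shortest transcript; RpS19b from 11.4% to 6.38%, 6.42% and 6.03%; RpS10a from 3.01% to 1.19%, 1.17% and 1.28%; and RpL22-like from 1.69% to 1.11% without the bases shared on the same strand. The lengths from unique windows of 50 and 75 bases were not run, since no sequence was used here. RpL22-like and RpS10a have the fewest reads, and 2 libraries per fraction limit the test of every pair.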
